A study of Mus musculus with 12 samples.

Results

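The effect of a short hairpin RNA against TUNA (gene symbol Tunar), a long noncoding RNA of mouse embryonic stem cells, was measured by pooling its libraries of 3 days. The pooled change of a gene was the average of the TUNA hairpin group means at days 2, 4 and 6 minus the mean of the control hairpin, so each day weighed the same. Genes entered when at least 3 of the 12 libraries held 10 normalized counts or more, which 8739 of the 37477 rows of the deposited table did. The 4 groups of 3 libraries were TUNA hairpin at day 2, at day 4 and at day 6, and control hairpin at day 2. All 12 libraries came from total RNA of CCE cells, 1 mouse embryonic stem cell line, kept in serum with LIF, transduced with pLKO.1-puro virus and held in puromycin, and the labels name neither the hairpin sequences nor a second TUNA hairpin. The control was taken at day 2, so in the pooled value hairpin and days in culture cannot be told apart, and the 3 day comparisons share the same 3 control libraries. The labels do not say whether replicates were separate cultures, so p-values speak only for the spread among the libraries, and that spread may be technical.

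TUNA is known from work in mouse embryonic stem cells as an RNA needed for pluripotency and neural commitment, and it is reported to act with the RNA-binding proteins nucleolin, PTBP1 and hnRNP K. Embryonic stem cells in LIF keep a naive state through STAT3 signalling and a network of transcription factors around Oct4, Sox2 and Nanog, and they divide fast with a short gap before S phase. The transcription factor p53 is active in these cells and induces genes of growth arrest, repair, metabolism and apoptosis after many kinds of stress.

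Libraries held 3522126 to 5652412 reads as recovered from the value steps, of which 60.4% to 76.9% lay in 3 rows (Rnu3a, Tex14 and LOC100503663), leaving 936421 to 2024737 reads for all other rows. Those rows took 72.68% to 74.48% of reads in hairpin libraries of day 2, 64.18% to 76.9% in those of day 4 and 60.4% to 69.31% in those of day 6, against 73.96% to 75.52% in control libraries. The part of this share in the results was not tested. The row of the targeted RNA, under its older symbol 2810011L19Rik, was at 0 in all 12 libraries, so the table does not check the knockdown. Markers of the labelled cell type were present: all 10 markers fixed for these cells were tested, and their summed level was 2806 to 3005 normalized counts under the hairpin at day 2, 2563 to 2776 under it at day 4 and 2013 to 2485 under it at day 6, against 3151 to 3375 in the control. Of 10 fibroblast markers, none passed the filter on low values, and Col1a1, Col1a2, Col3a1, Dcn, Lum and Postn were at 0 in all 12 libraries. In bulk RNA, fewer cells of a type and less RNA per cell cannot be told apart. No source used here says whether counting used strand, so reads of Nop56, Tpi1, Tagln, Nup62, Pfkp, Ptbp1 and Hnrnpk cannot be told apart from those of a protein-coding gene annotated on the other strand (Idh3b for Nop56, Spsb2 for Tpi1).

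Over the 3 days together, 318 genes rose and 322 fell under the TUNA hairpin by limma's moderated test at an adjusted p under 0.05 (Benjamini-Hochberg over the 8739 genes), which is 3.64% and 3.68% of those tested. At an unadjusted p under 0.05 there were 1886 genes. In 199 genes (2.28%) all 9 hairpin libraries lay above all 3 control libraries, and in 274 (3.14%) all lay below. A separate moderated F test compared only the hairpin groups, with the spread estimated from all 12 libraries, control included. It found 986 genes (11.3%) whose level differed between days 2, 4 and 6. The counts changed with the control libraries and with day 4: leaving out 1 control library gave 163 to 205 rises and 128 to 156 falls, and leaving out day 4 gave 142 and 131. When the 9 hairpin libraries were taken as 1 group, so that the spread between days entered the error, 71 genes rose and 53 fell.

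**Figure D1:**
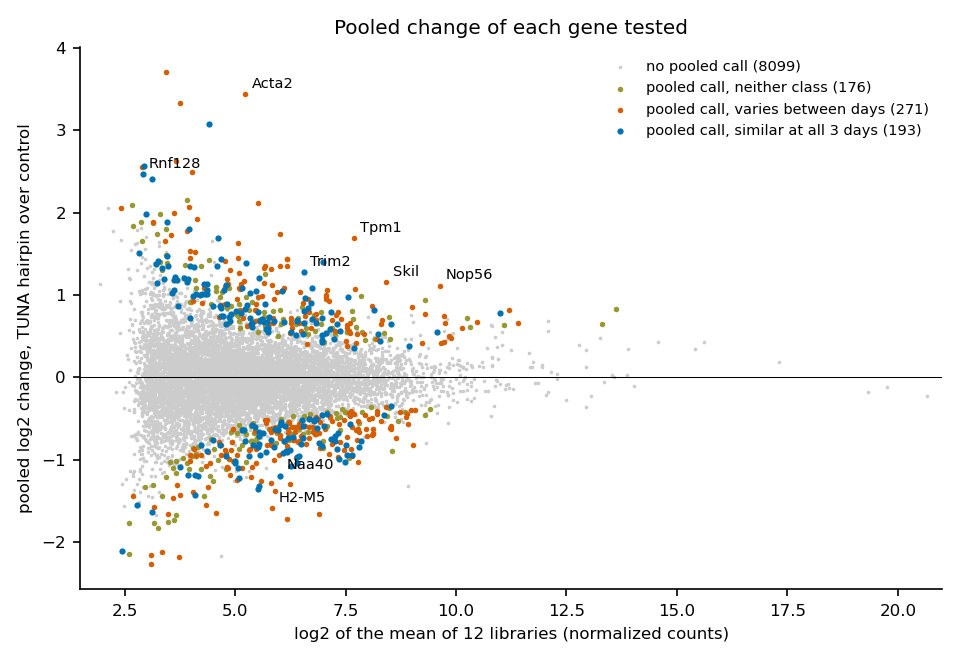
Pooled log2 change of the TUNA hairpin over control (y axis) against the log2 mean of the 12 libraries in normalized counts (x axis), 1 point for each of the 8739 genes. Colours mark the 193 pooled calls of similar size at all 3 days, the 271 that varied between days, the 176 of neither class and the 8099 genes without a pooled call.

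The pooled calls were divided by how steady they were. A change was of similar size where the 3 day changes had 1 sign, the smallest was at least 0.5 times the largest on the log2 scale, and the F test among days had an adjusted p of 0.05 or more. By this rule 112 rises (1.28% of genes tested) and 81 falls (0.927%) were similar at all 3 days. Another 121 rises and 150 falls varied between days, and 85 rises and 91 falls belonged to neither class. The similar rises had a median pooled change of 0.87 and day medians of 0.76, 0.97 and 0.86 at days 2, 4 and 6. The similar falls had a median of -0.82 and day medians of -0.75, -0.87 and -0.79. Medians over all genes tested were 0.01 at day 2, -0.01 at day 4 and -0.01 at day 6. The 9 hairpin libraries lay above the control in 82 of the 112 and below it in 73 of the 81. Over all genes tested the shares were 2.28% and 3.14%. The rule itself favours genes without overlap, so these counts are a description.

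Few of the steady changes were called at day 2 by itself. Against the control, 36 genes were higher (0.412%) and 48 lower (0.549%) at day 2, 611 (6.99%) and 678 (7.76%) at day 4, and 268 (3.07%) and 275 (3.15%) at day 6. Of the 112 similar rises, 11 were called at day 2, 99 at day 4 and 54 at day 6, and 9 were called at all 3 days. The 81 similar falls had 24 calls at day 2, 63 at day 4, 41 at day 6 and 17 at all 3. Among these similar genes, 7 rises and 12 falls were called at no single day. Of genes simulated with a steady 2-fold change, the fit recovered 81.8% among 8489 genes tested, and of those with a steady 1.5-fold change 35.3%, so smaller steady changes are often missed with these libraries.

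Among genes that averaged at least 50 normalized counts and whose hairpin and control libraries did not overlap, those with the largest steady rises encode enzymes and regulators of several kinds. Trim2, a ubiquitin ligase of the TRIM family, had 99.4, 138 and 137 at day 2, 79.8, 75 and 121 at day 4 and 117, 98.2 and 133 at day 6 in hairpin cells, against 41.3, 44.1 and 47.1 normalized counts in control cells. The lowest hairpin library thus lay above the highest control library. Its pooled log2 change was 1.28 ± 0.16 (SE; 2.43-fold, limma adjusted p 0.000212), made of 1.46 at day 2, 1.01 at day 4 and 1.37 at day 6. Mbnl2, a muscleblind-family regulator of splicing, had 98.5, 111 and 115 at day 2, 129.7, 112 and 111 at day 4 and 149, 131 and 118 at day 6, against 63.5, 63.9 and 61.9 in control cells. The control libraries were tight and all hairpin libraries stood above them, with a pooled change of 0.90 ± 0.12 (adjusted p 0.000348). Plk2, a polo-like kinase known as a p53 target, had 147, 147 and 149 at day 2, 121, 142 and 179 at day 4 and 181, 169 and 223 at day 6, against 95.8, 87.7 and 90.8 in control cells. Its change was 0.80 ± 0.13 (adjusted p 0.00156), and again no hairpin library reached down to the control.

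Klhl9, a substrate adaptor of cullin 3 ubiquitin ligases, averaged 297 ± 52.7 at day 2, 316 ± 82.8 at day 4 and 335 ± 44 at day 6 in hairpin cells and 178 ± 24.8 normalized counts in control cells (SD, n = 3 each). Its day changes were 0.73 at day 2, 0.80 at day 4 and 0.91 at day 6 (pooled 0.81 ± 0.15, adjusted p 0.0034 by limma). Arap2, a GTPase-activating protein for Arf proteins, averaged 99 ± 11 at day 2, 163 ± 30.1 at day 4 and 109 ± 23.8 at day 6, against 56.9 ± 12.2 in the control. Its largest change was at day 4, and day 4 exceeded day 2 by 0.70 (95% interval 0.27 to 1.14), although the F test over the 3 days had an adjusted p of 0.059. Ddit4l, an inhibitor of mTORC1 signalling, averaged 45.7 ± 8.68 at day 2, 67.2 ± 5.2 at day 4 and 61.6 ± 11.7 at day 6, against 30.6 ± 7.18. Prps2 makes the ribose precursor of nucleotides, and it spanned 83.2 to 124 normalized counts (median 105) in the 9 hairpin libraries, against 46.9 to 80.6 in the control. Its gene contains an annotated small nucleolar RNA. Pik3c2a, a class II phosphoinositide kinase, spanned 96.1 to 165 normalized counts (median 145) in the 9 hairpin libraries, against 73 to 91.8 in the control. Refbp2, now named Alyref2 and related to the mRNA export adaptor Alyref, spanned 1704 to 2738 normalized counts (median 2409) in the 9 hairpin libraries, against 1086 to 1700.5 in the control. The pooled changes of the last 4 were 0.90, 0.81, 0.72 and 0.78. Gm11278, a processed pseudogene whose reads may be shared with its parent gene, had a pooled change of 0.96.

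Under the same limits, the largest steady falls included genes of nuclear transport, protein acetylation and the nuclear lamina. Naa40, which acetylates the N terminus of histones H4 and H2A, had 48.2, 49.7 and 58.4 at day 2, 36.9, 31 and 68.4 at day 4 and 57.3, 38.8 and 57.8 at day 6 in hairpin cells, against 119, 106 and 110.2 normalized counts in control cells. Every hairpin library was below every control library, and the pooled change was -1.19 ± 0.20 (limma adjusted p 0.00176). Igbp1, the alpha4 subunit that binds protein phosphatase 2A, had 49.2, 65.7 and 56.9 at day 2, 63.4, 66.6 and 78.7 at day 4 and 66.4, 76.1 and 81.5 at day 6, against 148, 132 and 134 in control cells. The libraries did not overlap here either, and the change was -1.04 ± 0.14 (adjusted p 0.00025). Mrpl32, a protein of the mitochondrial ribosome, had 45.1, 61.8 and 55.5 at day 2, 39.1, 65 and 69.2 at day 4 and 53.3, 51 and 60.7 at day 6, against 98.4, 98.2 and 117 in control cells. Its day changes were nearly equal, at -0.95 at day 2, -0.88 at day 4 and -0.91 at day 6 (pooled -0.91 ± 0.17, adjusted p 0.00354). The difference between day 6 and day 2 was 0.03 (95% interval -0.42 to 0.48).

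Kpna1, an importin alpha that carries proteins into the nucleus, averaged 56.5 ± 18.8 at day 2, 51.4 ± 7.57 at day 4 and 74.8 ± 10.04 at day 6 in hairpin cells and 126 ± 10.7 normalized counts in control cells (pooled -1.07 ± 0.17, adjusted p 0.00122 by limma). Fzd5, a Wnt receptor, averaged 57.9 ± 7.12 at day 2, 54.7 ± 5.19 at day 4 and 64.2 ± 5.99 at day 6, against 111 ± 6.72 in the control (-0.91 ± 0.14, adjusted p 0.000733). Pa2g4, the growth regulator EBP1, spanned 64.7 to 160.2 normalized counts (median 143) in the 9 hairpin libraries, against 226 to 316 in the control. Its gene contains an annotated microRNA. Mbtps1, the site-1 protease that activates membrane-bound transcription factors, spanned 51.8 to 96.3 normalized counts (median 65.5) in the 9 hairpin libraries, against 104 to 162 in the control. Lmnb1 encodes the nuclear envelope protein lamin B1, and it spanned 78.5 to 250.1 normalized counts (median 172) in the 9 hairpin libraries, against 264 to 380.2 in the control. Ppil1, a peptidyl-prolyl isomerase of the spliceosome, spanned 76.8 to 220.0 normalized counts (median 149.7) in the 9 hairpin libraries, against 244 to 349 in the control. LOC100503634, for which the reference used here holds no annotation, spanned 95.8 to 183 normalized counts (median 134) in the 9 hairpin libraries, against 260.3 to 324 in the control. Pooled changes of the last 5 were -0.99, -0.96, -0.94, -0.94 and -1.03. Of the 20 steady genes named here, 16 kept the pooled call with each library left out in turn. Prps2, Mbtps1, Lmnb1 and Ppil1 did not (highest limma adjusted p 0.0539, 0.0649, 0.12 and 0.162). Each lost it without control replicate 2, Lmnb1 also without control replicate 1 and Ppil1 also without 4 other libraries. The 20 were picked for large changes without overlap, which favours a kept call. Of all 193 similar genes, 83, 90 and 95 kept the pooled call without control replicate 1, 2 and 3, and 102 without day 4. With 1 hairpin library left out, 138 to 184 of the 193 kept it.

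**Figure D2:**
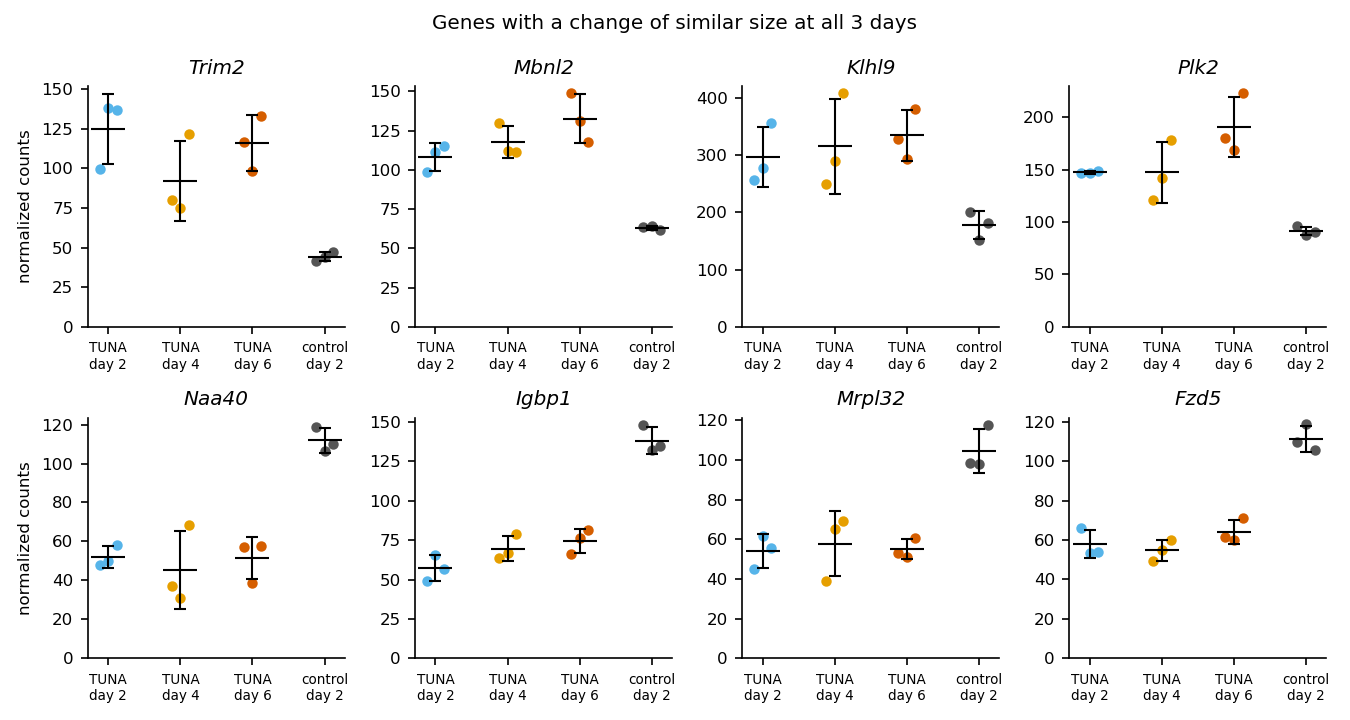
Normalized counts (y axes, linear from 0) of 4 steady rises (top) and 4 steady falls (bottom) in each library, by group on the x axis, with TUNA hairpin days 2, 4 and 6 left of the control. Points are libraries, and bars give the mean ± SD of 3 libraries. In each panel the 9 hairpin points lie on 1 side of the control points.

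Some rows of lower counts had larger steady changes. Rnf128, a ubiquitin ligase also called GRAIL, had 10.1, 5.68 and 12.8 at day 2, 4.56, 5.7 and 8.56 at day 4 and 8.26, 12.5 and 19 at day 6 in hairpin cells, against 1.73, 0 and 1.1 normalized counts in control cells, where 0 stands for 1 normalized count or less. Its pooled change was 2.47 ± 0.43 (adjusted p 0.00221 by limma), a size that depends on the pseudocount of 1. Rnf128 reached 10 normalized counts only in hairpin libraries, so it passed the filter on low values only through the libraries where it was high. The TRIM and RNF ubiquitin ligases as a list had 2 rises (Trim2 and Rnf128) and 2 falls among 47 tested members (8.51% called, beside 7.32% over all genes), with a median change of -0.01 beside -0.01 over all genes. The falls were Rnf181 and Trim35, and Trim35 varied between days. With a filter that asked for 6 libraries, 1 member rose.

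Genes known as p53 targets were the list with the most steady members. Of 28 tested from 33 listed, 14 rose and 1 fell in the pooled comparison, 7 were similar at all 3 days and 8 varied. That is 53.6% called and 28.6% varying, beside 7.32% and 11.3% over all genes tested. Similar rises made up 1.28% of all genes tested and similar falls 0.927%. The median pooled change was 0.51 beside -0.01 over all genes tested. The median was 0.30 at day 2, 0.75 at day 4 and 0.31 at day 6. Cdkn1a, the cell-cycle inhibitor p21, had 10.1, 13.6 and 7.12 at day 2, 21.5, 16 and 13.4 at day 4 and 13.5, 12.5 and 11.3 at day 6 in hairpin cells, against 8.63, 2.76 and 3.31 normalized counts in control cells. The highest control library lay above the lowest day 2 library, so the groups overlapped, and the pooled change was 1.35 ± 0.33 (limma adjusted p 0.0173). Cdkn1a reached 10 normalized counts only in hairpin libraries, so it passed the filter on low values only through the libraries where it was high. Sesn2, a stress-induced inhibitor of mTORC1, had 34.5, 31.3 and 19.9 at day 2, 30.3, 27.7 and 29 at day 4 and 28, 26.4 and 33.8 at day 6, against 18.1, 16.1 and 13 in control cells. No libraries overlapped, and its day changes were even, at 0.80 at day 2, 0.85 at day 4 and 0.87 at day 6 (pooled 0.84 ± 0.20, adjusted p 0.0173).

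Polk, a DNA polymerase that copies past damage, averaged 61.7 ± 16.7 at day 2, 102 ± 8.67 at day 4 and 64.8 ± 7.67 at day 6 in hairpin cells and 37.1 ± 14.4 normalized counts in control cells (pooled 1.05 ± 0.21). Apaf1, the scaffold of the apoptosome, averaged 129 ± 14.4 at day 2, 158 ± 33.1 at day 4 and 143 ± 20.8 at day 6, against 97.6 ± 9.86 in the control (0.54 ± 0.14). Phlda3, an inhibitor of Akt, averaged 28.3 ± 4.08 at day 2, 38.8 ± 10.03 at day 4 and 33.9 ± 1.68 at day 6, against 19.5 ± 5.73 in the control (0.77 ± 0.21). Limma adjusted p-values were 0.0048 for Polk, 0.0288 for Apaf1 and 0.0329 for Phlda3. Ei24, a protein of the endoplasmic reticulum induced by p53, was the list member that fell, to 24.9 ± 5.87 at day 2, 30.03 ± 2.48 at day 4 and 22.8 ± 7.21 at day 6 in hairpin cells, against 56.1 ± 8.88 in control cells (-1.11 ± 0.20, adjusted p 0.00312).

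The other rises of p53 targets varied between days, except that of Zmat3, which was of neither class. Perp, an apoptosis and desmosome gene, had 51.5, 44.3 and 41.3 at day 2, 83.4, 72.9 and 66 at day 4 and 107, 124 and 116 at day 6 in hairpin cells, against 31.1, 15 and 19.9 normalized counts in control cells. It was higher at each later day, with changes of 1.08 at day 2, 1.76 at day 4 and 2.40 at day 6 (pooled 1.75 ± 0.18, adjusted p 4.88e-05; F test among days 0.00282). Pmaip1, the apoptosis gene Noxa, averaged 39.5 ± 3.97 at day 2, 125 ± 32 at day 4 and 67.4 ± 17.8 at day 6, against 27.2 ± 9.77 in the control (pooled 1.35 ± 0.21, adjusted p 0.000939). Ccng1, cyclin G1, averaged 727 ± 36.7 at day 2, 1125 ± 211 at day 4 and 1001 ± 187 at day 6, against 589 ± 65.5 in the control (pooled 0.66 ± 0.13, adjusted p 0.00578). Ccng2, cyclin G2, was by far highest at day 4, averaging 28.5 ± 5.27 at day 2, 125 ± 18.2 at day 4 and 11.8 ± 2.94 at day 6, against 17.2 ± 0.268 in the control (pooled 0.98 ± 0.19, F test among days 6.01e-07). Ddit4, which answers to low oxygen as well as p53, averaged 17.9 ± 3.72 at day 2, 83.6 ± 26.4 at day 4 and 16.6 ± 3.04 at day 6, against 14.4 ± 1.29 in the control (pooled 0.96 ± 0.22). Eda2r (0.52), Trp53inp1 (0.51) and Zmat3 (0.76) were the other rises. The F tests among days of Ccng1, Eda2r and Trp53inp1 lost the call in 7, 10 and 10 of the 12 fits that left out 1 library. Of the 15 called members, Plk2, Perp, Pmaip1, Ccng2 and Ei24 kept the pooled call with each library left out. The other 10 lost it without at least 1 control library, with adjusted p up to 0.118 for Cdkn1a, 0.102 for Sesn2, 0.15 for Apaf1 and 0.187 for Phlda3. With 1 control library left out, 6 to 8 of the list rose, without day 4 there were 4, and with the 9 hairpin libraries as 1 group there were 3.

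The sequences upstream of 2 risen p53 targets are shown because they hold matches to the p53 half-site, with the matches in capitals. Sequences are the 300 bases around the RefSeq transcription start in GRCm38.p6, 250 before it and 50 from it onward. They are printed on the gene's strand, at chr17:29090729-29091028 (plus strand) for Cdkn1a and chr11:40755237-40755536 (minus strand) for Ccng1.
Cdkn1a: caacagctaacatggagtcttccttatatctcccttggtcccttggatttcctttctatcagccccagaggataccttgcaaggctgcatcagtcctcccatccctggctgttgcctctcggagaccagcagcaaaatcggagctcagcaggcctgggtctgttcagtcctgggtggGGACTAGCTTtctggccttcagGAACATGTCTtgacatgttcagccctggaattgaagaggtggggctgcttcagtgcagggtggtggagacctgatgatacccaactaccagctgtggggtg
Ccng1: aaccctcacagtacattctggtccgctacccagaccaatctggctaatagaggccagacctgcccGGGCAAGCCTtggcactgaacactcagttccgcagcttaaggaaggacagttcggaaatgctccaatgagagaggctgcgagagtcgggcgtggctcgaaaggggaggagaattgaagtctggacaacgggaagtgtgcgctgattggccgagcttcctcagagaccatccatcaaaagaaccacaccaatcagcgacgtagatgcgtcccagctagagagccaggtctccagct
Matches began at positions -73 and -51 in Cdkn1a and -185 in Ccng1, counted from the start site. Among the other called members with a promoter in the table, Polk, which rose, and Ei24, which fell, held a match. Ccng2, Sesn2, Plk2, Phlda3, Ddit4, Apaf1 and Eda2r rose and held none. Whether matches go with the rises was not tested. The half-site reads the same on both strands, and overlapping matches were allowed. It was present in 10 of 21 p53 targets with a promoter in the table (47.6%), against 8.37% of all 27025 promoters and 6.45% of the genes tested that had one. Among the similar class it was present in 8 of 89 rises (8.99%) and 7 of 67 falls (10.4%). A match describes letters in this window and is not evidence of binding.

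Of 41 tested genes of DNA replication and S phase, 0 rose and 6 fell, with 4 of the falls similar at all 3 days. That is 14.6% called, beside 7.32% over all genes tested, of which 0.927% were similar falls. The share of varying members was 9.76%, near the 11.3% over all genes. The median pooled change was -0.16, beside -0.01 over all genes tested. Mcm4, a subunit of the replicative helicase, had 59.9, 44.3 and 55.9 at day 2, 65.4, 60.1 and 66.5 at day 4 and 50.6, 52.5 and 74.2 at day 6 in hairpin cells, against 103, 122 and 104 normalized counts in control cells. All hairpin libraries lay below the control, and the change was -0.90 ± 0.15 (limma adjusted p 0.00194). Its partner Mcm3 had 105, 125 and 134 at day 2, 118, 89.5 and 105 at day 4 and 111, 145 and 105 at day 6, against 180.3, 151 and 186 in control cells. These did not overlap either (-0.59 ± 0.14, adjusted p 0.0168). Rfc1, the large subunit of the clamp loader, spanned 119.8 to 164 normalized counts (median 136) in the 9 hairpin libraries, against 203 to 256 in the control (-0.68 ± 0.13, adjusted p 0.00409). Dtl, the substrate receptor that has licensing factor Cdt1 destroyed, spanned 49.3 to 86.7 normalized counts (median 58.3) in the 9 hairpin libraries, against 91 to 114 in the control (-0.73 ± 0.15, adjusted p 0.00623). Uhrf1, which maintains DNA methylation, spanned 81.2 to 149 normalized counts (median 104) in the 9 hairpin libraries, against 159.7 to 198 in the control (-0.78 ± 0.14). Cdc6, which loads the helicase, averaged 131 ± 20.4 at day 2, 76.5 ± 13.8 at day 4 and 104 ± 15.5 at day 6, against 164 ± 31.9 in the control, and varied between days (F test adjusted p 0.0341). That F test lost its call in 6 of the 12 fits that left out 1 library. With 1 control library left out, the pooled calls of Mcm3, Dtl and Cdc6 were lost (limma adjusted p up to 0.0941, 0.0576 and 0.106).

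Promoters of 2 steady S phase falls are shown for their E2F matches, in capitals, since E2F factors are known to control replication genes. The windows, of the same build and length, lie at chr1:20820263-20820562 (minus strand) for Mcm3 and chr1:191575495-191575794 (minus strand) for Dtl.
Mcm3: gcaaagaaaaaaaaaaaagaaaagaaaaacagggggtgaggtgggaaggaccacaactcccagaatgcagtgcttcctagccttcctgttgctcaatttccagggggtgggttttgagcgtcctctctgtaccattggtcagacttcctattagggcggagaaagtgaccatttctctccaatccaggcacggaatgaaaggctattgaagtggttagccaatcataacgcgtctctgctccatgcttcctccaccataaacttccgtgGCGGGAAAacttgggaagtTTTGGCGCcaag
Dtl: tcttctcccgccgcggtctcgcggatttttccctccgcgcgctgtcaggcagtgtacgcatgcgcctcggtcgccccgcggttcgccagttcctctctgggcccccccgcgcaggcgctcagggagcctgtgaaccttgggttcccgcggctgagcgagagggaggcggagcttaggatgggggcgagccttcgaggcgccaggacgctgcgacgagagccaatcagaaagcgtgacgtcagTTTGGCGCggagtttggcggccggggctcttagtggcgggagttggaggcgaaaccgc
Matches began at positions 20 and 39 in Mcm3 and -8 in Dtl. Of the other S phase falls with a promoter in the table, Cdc6 held a match, and Rfc1 and Uhrf1 held none. Whether matches go with the falls was not tested. The letters searched were TTTGGCGC, TTTCCCGC, TTTCGCGC and TTTGCCGC on both strands. They were present in 12 of 33 S phase genes with a promoter in the table (36.4%), 2.32% of all promoters and 5.08% of genes tested with a promoter, and in 2 of 89 similar rises (2.25%) and 5 of 67 similar falls (7.46%).

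Of 24 tested naive pluripotency genes, from 27 listed, 10 fell and 2 rose in the pooled comparison, 2 were similar at all 3 days and 11 varied. That is 50% called and 45.8% varying, beside 7.32% and 11.3% over all genes tested. The median change was -0.24 at day 2, -0.45 at day 4 and -0.55 at day 6 (pooled -0.48, beside -0.01 over all genes). Tcfcp2l1, the naive transcription factor now named Tfcp2l1, had 222, 229.5 and 243 at day 2, 176, 173 and 197 at day 4 and 158, 153 and 216 at day 6 in hairpin cells, against 342, 341 and 317 normalized counts in control cells. The highest hairpin library lay below the lowest control library, and the fall was steady (-0.78 ± 0.12, limma adjusted p 0.000998). Il6st, the gp130 receptor through which LIF signals, was the other steady member and rose: it had 94, 84.4 and 65 at day 2, 82.4, 104 and 126 at day 4 and 104, 92 and 93.3 at day 6, against 64.3, 56.9 and 49.6 in control cells. Its libraries did not overlap (0.70 ± 0.16, adjusted p 0.0105). Socs3, a feedback inhibitor of LIF signalling, averaged 141 ± 15.7 at day 2, 199 ± 27.1 at day 4 and 145 ± 19.97 at day 6, against 105 ± 9.64 in the control (0.60 ± 0.13, adjusted p 0.00978).

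The falls that varied had different days of lowest level. Tdh, threonine dehydrogenase, had 323, 282 and 292 at day 2, 147, 190.3 and 176 at day 4 and 297, 267 and 231 at day 6 in hairpin cells, against 381, 387 and 379 normalized counts in control cells. It was lowest at day 4 and did not overlap with the control (-0.68 ± 0.12, adjusted p 0.00189 by limma). Nr0b1, the nuclear receptor Dax1, averaged 95.1 ± 16.7 at day 2, 41.1 ± 7.75 at day 4 and 69.7 ± 23.3 at day 6, against 127 ± 15.8 in the control (-0.98 ± 0.19, adjusted p 0.0038). Zfp57, which guards imprinted methylation, averaged 324 ± 15 at day 2, 179.8 ± 14.7 at day 4 and 227 ± 34 at day 6, against 377 ± 25.2 (-0.67 ± 0.12, adjusted p 0.00197). Pecam1, a surface protein of stem and endothelial cells, averaged 46.5 ± 5.73 at day 2, 46.1 ± 1.98 at day 4 and 20.3 ± 5.46 at day 6, against 64.8 ± 1.65 (-0.87 ± 0.17), and was lowest at day 6. Nanog had 287, 295 and 327 at day 2, 483, 406 and 345 at day 4 and 279, 271 and 198 at day 6 in hairpin cells, against 429.6, 465 and 551 in control cells. Day 4 reached into the control range, and the pooled change was -0.62 ± 0.13 (adjusted p 0.00891; F test among days 0.0228). Nr5a2 (-0.76), Tet2 (-0.53), Zfp42 (-0.53) and Tbx3 (-0.60) completed the falls. The calls of Nanog, Nr5a2, Tet2, Zfp42, Tbx3, Il6st and Socs3 were each lost with at least 1 library left out, with adjusted p up to 0.0758 for Nanog and 0.0746 for Il6st. With 1 library left out, 6 to 12 of the list fell, without day 4 there were 5, and with the 9 hairpin libraries as 1 group there was 1.

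Of the core factors, Pou5f1, which encodes Oct4, had 644, 698 and 673 at day 2, 527, 531 and 429.9 at day 4 and 619.7, 679.8 and 518 at day 6 in hairpin cells, against 731, 672 and 808 normalized counts in control cells. These overlapped, and the pooled change of -0.33 ± 0.12 did not pass (limma adjusted p 0.0971). Sox2 averaged 571 ± 38 at day 2, 617 ± 70.7 at day 4 and 375 ± 15.9 at day 6, against 551 ± 12.5 in the control (pooled -0.12 ± 0.10, adjusted p 0.572), and its level differed between days (F test adjusted p 0.00272), with day 6 lowest. Fgf4 was likewise lowest at day 6, averaging 219 ± 6.41 at day 2, 201 ± 27.2 at day 4 and 102 ± 6.65 at day 6, against 217 ± 23.4 in the control (pooled -0.39 ± 0.12, adjusted p 0.0563; F test 0.000175). Core and general pluripotency genes as a list had 0 rises and 2 falls of 18 tested, 7 varying members and a median of -0.13. That is 11.1% called and 38.9% varying, beside 7.32% and 11.3% over all genes tested. The falls were the RNA-binding protein gene L1td1 (-0.62 ± 0.11, adjusted p 0.00212) and the DNA methyltransferase gene Dnmt3a (-0.77 ± 0.15, adjusted p 0.00348).

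**Figure D3:**
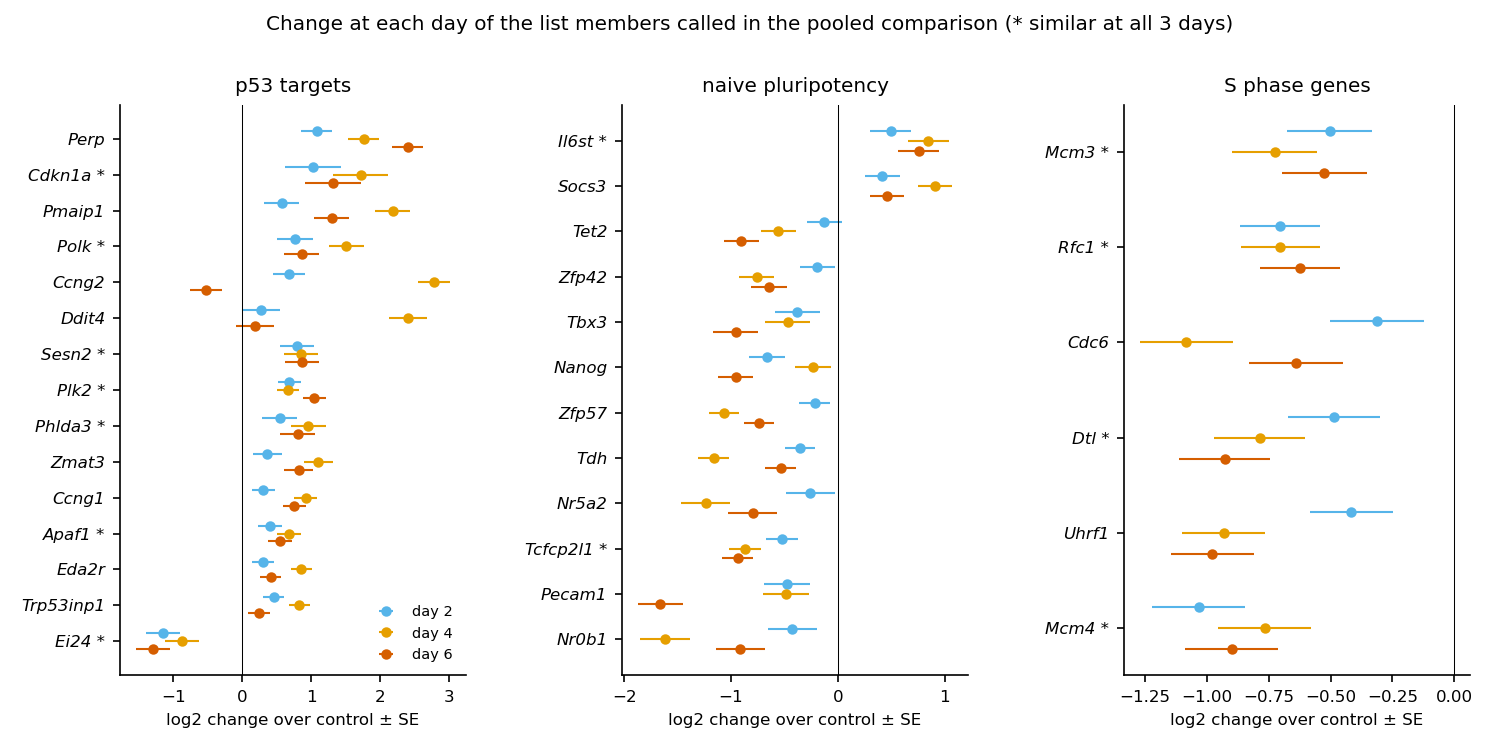
Log2 change over control (x axis, ± SE of the fit) at days 2, 4 and 6 for each member called in the pooled comparison, among p53 targets (left), naive pluripotency genes (middle) and S phase genes (right, with its own scale). Stars mark members of similar size at all 3 days. Day 4 lies far to the right in Ccng2 and Ddit4, while the 3 days of Sesn2 and Rfc1 lie close together.

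Day 4 most often stood apart among the varying genes. Of the 986 varying genes, 715 had no pooled call, and in 723 the day 4 mean lay outside the range of the other hairpin days, highest in 340 and lowest in 383. Among the 121 varying rises, the change from control was largest at day 2 in 4, at day 4 in 78 and at day 6 in 39. Among the 150 varying falls it was largest at day 2 in 1, at day 4 in 111 and at day 6 in 38. Their median range between the lowest and highest day change was 1.15 for the rises and 1.01 for the falls, against 0.35 and 0.34 in the similar class. That contrast follows from the rule and is a description.

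A pooled rise could come from a single day. Nop56, part of the ribonucleoproteins formed by box C/D small nucleolar RNAs, had 1568, 3551 and 3073 at day 2, 115, 134 and 139.8 at day 4 and 124, 124 and 162 at day 6 in hairpin cells, against 153, 128 and 225 normalized counts in control cells. Day 2 stood far above, while days 4 and 6 lay within or below the control range, so its pooled change of 1.12 ± 0.20 (limma adjusted p 0.0029) came from day 2 and was -0.31 without it. Ncl, nucleolin, had 3866, 3155 and 2921 at day 2, 237, 276 and 359.7 at day 4 and 384, 362 and 515 at day 6, against 562, 485 and 415 in control cells. It showed the same high day 2, and its pooled value was 0.60 ± 0.15 (adjusted p 0.02), or -0.49 without day 2, and its call was also lost without control replicate 2 or 3 (adjusted p up to 0.127). Both genes host small nucleolar RNAs, 5 in Nop56 and 3 in Ncl in GENCODE M21, and the sources used here do not give how their reads were assigned. Of 28 nucleolar and small nucleolar ribonucleoprotein genes, these 2 rose and 3 fell (Rrn3, Nop16 and Bop1), 9 varied, and the median was -0.32. That is 17.9% called and 32.1% varying, beside 7.32% and 11.3% over all genes tested. Rrn3, the initiation factor of RNA polymerase I, averaged 315 ± 48.9 at day 2, 243 ± 88.6 at day 4 and 383 ± 7.8 at day 6, against 567 ± 36.6 in the control (-0.90 ± 0.16, adjusted p 0.00221).

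Day 4 carried the rises of glycolysis and low oxygen genes. Of 19 glycolysis genes, 5 rose and 1 fell (31.6% called) and 12 varied (63.2%), beside 7.32% and 11.3% over all genes tested. Their median was 0.04 at day 2, 0.66 at day 4 and -0.10 at day 6. Of 15 further genes of the low oxygen response, 4 rose and 2 fell (40% called) and 11 varied (73.3%). The day medians of the latter were -0.01, 0.94 and -0.07. Tpi1, triosephosphate isomerase, had 151, 126 and 145 at day 2, 419, 403 and 331 at day 4 and 177, 173 and 152 at day 6 in hairpin cells, against 176, 138 and 153 normalized counts in control cells. Only at day 4 did all 3 libraries lie above the control, and the pooled change was 0.42 ± 0.12 (limma adjusted p 0.0441; F test 1.92e-05), or -0.015 without day 4. Its call was lost in 9 of the 12 fits that left out 1 library (adjusted p up to 0.231). Bnip3, a mitophagy receptor, averaged 10.9 ± 2.75 at day 2, 82.4 ± 17.1 at day 4 and 12.1 ± 2.17 at day 6, against 9.6 ± 1.4 in the control (1.14 ± 0.23, F test 8.84e-06). Egln3, a prolyl hydroxylase that senses oxygen, averaged 4.15 ± 1.74 at day 2, 40.2 ± 1.51 at day 4 and 2.73 ± 0.344 at day 6, against 1.65 ± 1.46 in the control (1.99 ± 0.44, F test 0.000675), and it passed the filter on low values only through day 4, where it was high. Plod2, a collagen lysyl hydroxylase, averaged 48.6 ± 3.27 at day 2, 156 ± 29.2 at day 4 and 55.9 ± 1.74 at day 6, against 27.5 ± 6.02 (1.43 ± 0.16, adjusted p 6.44e-05), and was above the control in every hairpin library.

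Pdk1, which turns pyruvate away from mitochondria, was the glycolysis member of similar size at all 3 days, and it had 355, 323 and 412 at day 2, 395, 438 and 516 at day 4 and 413, 384 and 440.0 at day 6 in hairpin cells, against 282, 251 and 244 normalized counts in control cells. Its libraries did not overlap (0.65 ± 0.12, limma adjusted p 0.00265). Pfkp, platelet-type phosphofructokinase, fell to 51.3 ± 5.87 at day 2, 138 ± 3.77 at day 4 and 36.3 ± 7.93 at day 6 in hairpin cells, against 103 ± 28 in control cells, with day 4 above the control mean (pooled -0.66 ± 0.17, adjusted p 0.0238; F test 3.73e-05). The glucose transporter Slc2a1 (0.42), the lactate dehydrogenase Ldha (0.41) and the lactate transporter Slc16a3 (0.82) were the other rises of glycolysis. Ak4 (-0.73), an adenylate kinase, and Kdm3a (-0.36), a histone demethylase, were the falls of the low oxygen list, both lowest at day 6. With 1 library left out, the calls of Egln3, Pfkp, Slc2a1, Ldha, Slc16a3, Ak4 and Kdm3a were lost at least once, while Pdk1, Bnip3 and Plod2 kept theirs. G2e3, a ubiquitin ligase, had the same day 4 pattern as Tpi1, averaging 151 ± 4.54 at day 2, 481 ± 29.3 at day 4 and 172 ± 5.81 at day 6, against 161 ± 19.1 in the control (0.53 ± 0.11, F test 8.62e-07).

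Day 6 carried the rises of actin and contractile genes. Of 28 tested, 8 rose and 1 fell, 19 varied and 0 were similar. That is 32.1% called and 67.9% varying, beside 7.32% and 11.3% over all genes tested. The median change was 0.28 at day 2, 0.14 at day 4 and 0.77 at day 6. Tpm1, an alpha tropomyosin, had 111, 111 and 149 at day 2, 67, 82.8 and 135 at day 4 and 473, 489.7 and 673 at day 6 in hairpin cells, against 85.1, 42.2 and 47.4 normalized counts in control cells. Day 6 stood apart from all other libraries, and the pooled change was 1.70 ± 0.22 (limma adjusted p 0.0002; F test 1.75e-05). Tagln, the smooth muscle protein transgelin, had 5.54, 21.2 and 10.7 at day 2, 13, 22.8 and 12.1 at day 4 and 146, 158 and 144 at day 6, against 6.76, 7.55 and 4.41 in control cells. Acta2, smooth muscle actin, had 2.24, 9.92 and 0 at day 2, 9.61, 3.24 and 3.59 at day 4 and 151, 171 and 98.5 at day 6, against 0, 0 and 1.1 in control cells. In both genes all day 6 libraries lay far above every other library, and the F tests had adjusted p-values of 1.3e-05 and 0.00011. Acta2 reached 10 normalized counts at day 6 alone, so it passed the filter on low values only through the group where it was high. Tagln reached that level in hairpin libraries of all 3 days but in no control library, so it passed through hairpin libraries only. The summed level of 6 smooth muscle markers, which includes both genes, was 10.01 to 40.23 normalized counts in hairpin cells of day 2, 23.05 to 28.67 in those of day 4 and 260.4 to 351.7 in those of day 6, against 9.345 to 11.64 in control cells, while Myh11 and Lmod1 were at 0 in all libraries of days 4 and 6 and of the control.

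Tpm4, another tropomyosin, was above the control in every hairpin library, averaging 58.7 ± 6.69 at day 2, 57 ± 21 at day 4 and 146 ± 36.5 at day 6, against 28.1 ± 5.01 (1.43 ± 0.21, adjusted p 0.000727 by limma). Cald1, caldesmon, did the same, averaging 132 ± 27.6 at day 2, 129 ± 21 at day 4 and 198 ± 7.31 at day 6, against 75.7 ± 13.5 (0.98 ± 0.15, adjusted p 0.000869). Myl9 (2.63), Lpp (0.95) and Cnn2 (0.72) also rose, and Tpm3 (-0.51) fell, the calls of Lpp, Cnn2 and Tpm3 being lost with at least 1 library left out. Myl9 reached 10 normalized counts in fewer than 6 libraries, so it was not tested under the filter that asked for 6. Cnn1, also tested in this list, passed the filter on low values only through day 6. It had 16.5, 22.6 and 14.2 normalized counts there and at most 1.303 in any other library. Without day 6 the list had 3 rises, and with the 9 hairpin libraries as 1 group it had 1. Krt18, a keratin of simple epithelia, was high at day 6 too, averaging 22.9 ± 3.58 at day 2, 26.4 ± 8.08 at day 4 and 135 ± 29.1 at day 6, against 17.2 ± 5.92 in the control (1.32 ± 0.23, F test 2.15e-05). Of 12 YAP and TGF-beta response genes 3 rose, 0 fell and 7 varied (median 0.50). That is 25% called and 58.3% varying, beside 7.32% and 11.3% over all genes tested. Skil, a feedback inhibitor of TGF-beta signalling, had 253, 263 and 276 at day 2, 533, 583 and 563 at day 4 and 371, 418 and 340.2 at day 6 in hairpin cells, against 166, 190.2 and 157 in control cells. Itgav, integrin alpha V, had 69.6, 61.1 and 56.8 at day 2, 113, 122 and 116 at day 4 and 75.7, 81 and 81.5 at day 6, against 32.5, 32.7 and 30.7 in control cells. Both were above the control in all 9 hairpin libraries and highest at day 4, with pooled changes of 1.16 ± 0.11 and 1.36 ± 0.13 (adjusted p 2.67e-05 and 2.67e-05).

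Several varying falls were deepest at day 4 or day 6. H2-M5, a nonclassical histocompatibility gene, had 86.2, 73.1 and 86.3 at day 2, 19, 17.2 and 22 at day 4 and 25.1, 30.3 and 17.5 at day 6 in hairpin cells, against 105, 97.5 and 107 normalized counts in control cells. All hairpin libraries lay below the control, days 4 and 6 much further (-1.59 ± 0.17, limma adjusted p 5.02e-05; F test 1.72e-05). Rinl, a protein related to Ras interactors, averaged 84.7 ± 3.21 at day 2, 25.2 ± 3.11 at day 4 and 38.3 ± 4.26 at day 6, against 88.5 ± 6.44 in the control (-1.01 ± 0.14, F test 2.76e-05). C030039L03Rik, now named Zfp607b, averaged 103 ± 16.7 at day 2, 21.7 ± 5.48 at day 4 and 28.4 ± 3.17 at day 6, against 71.3 ± 15.7 (-0.81 ± 0.19). Zfp532, a zinc finger protein, averaged 299.7 ± 21.5 at day 2, 107 ± 7.18 at day 4 and 192 ± 21.7 at day 6, against 292 ± 30.4 (-0.67 ± 0.12). Mmrn2, an extracellular matrix protein, averaged 108 ± 15 at day 2, 59.8 ± 9.58 at day 4 and 14.6 ± 3.02 at day 6, against 75.3 ± 14.8 (-0.69 ± 0.17), and its pooled change was 0.10 without day 6. The calls of Mmrn2 and C030039L03Rik were lost without control replicate 1 or 2 (adjusted p up to 0.157 and 0.102). Nid1, the basement membrane protein nidogen, was lower at each later day, averaging 68 ± 13.1 at day 2, 38 ± 1.92 at day 4 and 26.2 ± 2.95 at day 6, against 108 ± 7.26 (-1.38 ± 0.15, adjusted p 5.87e-05). Sept11, a septin, fell at all 3 days but unequally, with changes of -1.35 at day 2, -1.67 at day 4 and -0.86 at day 6 (-1.29 ± 0.14, F test 0.0127).

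**Figure D4:**
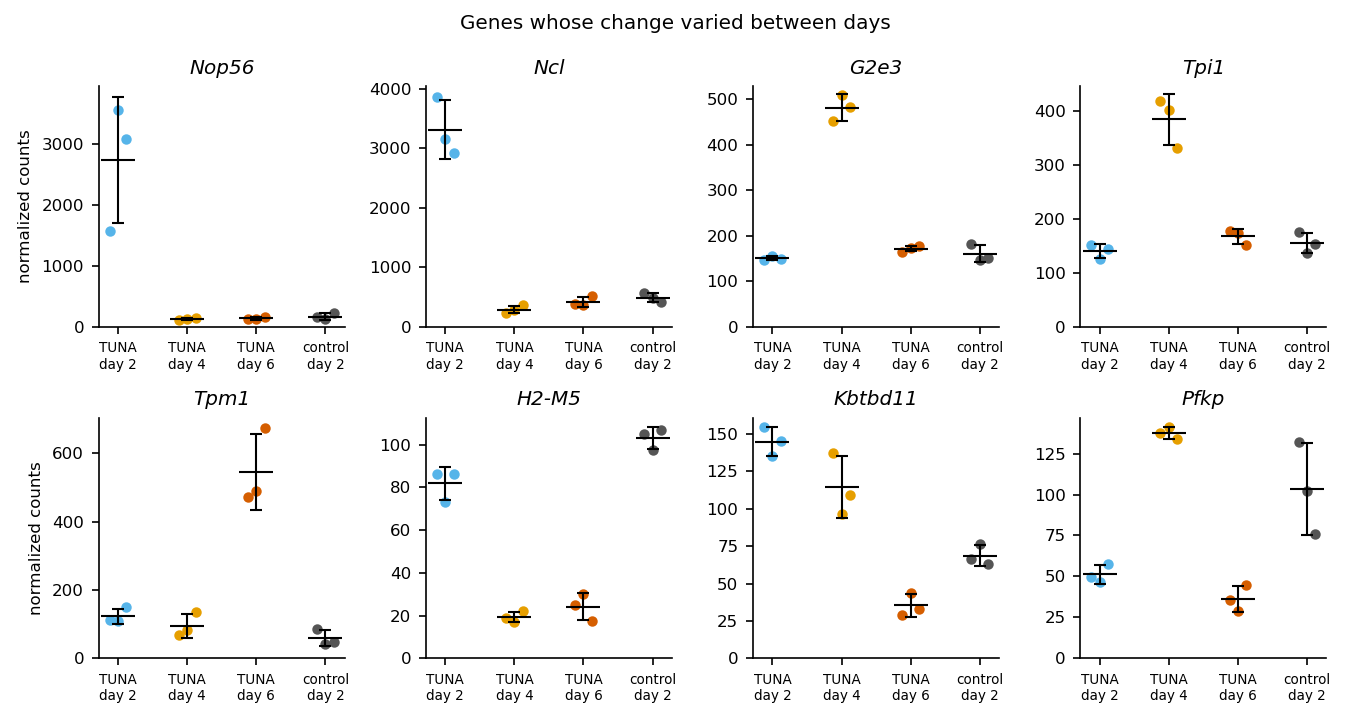
Normalized counts (y axes, linear from 0) of 8 genes whose level varied between hairpin days, in each library, by group on the x axis. Points are libraries, and bars give the mean ± SD of 3. Nop56 and Ncl are high at day 2, G2e3 and Tpi1 at day 4 and Tpm1 at day 6, H2-M5 is low from day 4, and Kbtbd11 and Pfkp have days on both sides of the control.

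In 10 genes a day called higher than control stood beside a day called lower, so that the pooled value averaged opposite changes. Ldhb, lactate dehydrogenase B, had 233, 235 and 237 at day 2, 252, 230.5 and 254 at day 4 and 88.5, 84.3 and 87.7 at day 6 in hairpin cells, against 138, 127 and 149 normalized counts in control cells. Days 2 and 4 lay above and day 6 below the control without overlap, and the pooled change of 0.31 ± 0.11 did not pass (limma adjusted p 0.0943; F test 2.22e-06). Gm5514, a processed pseudogene that may share reads with Ldhb, had day changes of 0.99 at day 2, 0.63 at day 4 and -0.62 at day 6. Kbtbd11, a kelch and BTB domain protein, had 155, 135 and 145 at day 2, 137, 96.9 and 109 at day 4 and 29.3, 43.6 and 33.2 at day 6, against 66.4, 76.3 and 62.9 in control cells. It too was above the control at days 2 and 4 and below it at day 6 (pooled 0.28 ± 0.15, adjusted p 0.3). Flna, the actin crosslinker filamin A, averaged 309 ± 23.3 at day 2, 149.9 ± 12.4 at day 4 and 401 ± 15 at day 6, against 251 ± 20.1 in the control (pooled 0.08 ± 0.11, adjusted p 0.737). Cth, which makes cysteine from cystathionine, averaged 164 ± 36 at day 2, 50.2 ± 12.2 at day 4 and 42 ± 11.2 at day 6, against 77 ± 5.9 in the control (pooled -0.15 ± 0.19, adjusted p 0.698). Ncl belonged to these genes as well, with a change of -0.75 at day 4 (adjusted p 0.00959).

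The proteins reported to bind TUNA besides nucleolin showed no pooled call. Ptbp1, a splicing repressor, spanned 35.3 to 107 normalized counts (median 63.1) in the 9 hairpin libraries, against 69.7 to 77.5 in the control (pooled -0.25 ± 0.19, limma adjusted p 0.491), with a difference among days at an F test adjusted p of 0.0403. That difference lost its call in 8 of the 12 fits that left out 1 library. Hnrnpk spanned 82.1 to 145 normalized counts (median 128) in the 9 hairpin libraries, against 101 to 132 in the control (pooled 0.14 ± 0.15, adjusted p 0.64).

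Histone genes had 3 rises and 0 falls of 36 tested (8.33% called, beside 7.32% over all genes), and 13 varied (36.1%, beside 11.3%). The number varying ran from 5 to 18 with 1 library left out. The median change was -0.13 at day 2, 0.58 at day 4 and 0.16 at day 6. H3f3a, a gene for histone H3.3, had 166, 140.3 and 132 at day 2, 166, 166 and 132 at day 4 and 141, 173 and 112 at day 6 in hairpin cells, against 38.5, 34.2 and 124 normalized counts in control cells. The control libraries disagreed, since 1 lay within the hairpin range, and the pooled change was 1.40 ± 0.27 (limma adjusted p 0.00383, or 0.0532 without control replicate 2). Histone genes have near-identical copies that may share reads. H2afv and Hist1h1b were the other rises, and their calls were lost in 8 and 9 of the 12 fits that left out 1 library (adjusted p up to 0.273 and 0.222). Of 46 importins, exportins and nucleoporins, 1 rose (Xpo1) and 3 fell (Kpna1, Nup62 and Kpnb1; 8.70% called in all), 3 of these were similar and 0 of the list varied. The call of Kpnb1 was lost in 7 of the fits that left out 1 library (adjusted p up to 0.193). Nup62, a pore protein, averaged 109 ± 4.79 at day 2, 97.5 ± 8.44 at day 4 and 101 ± 10.2 at day 6, against 157 ± 2.45 in the control (-0.62 ± 0.12, adjusted p 0.00405). Among 7 septins (28.6% called), Sept2 rose (0.65 ± 0.15) and Sept11 fell, the call of Sept2 being lost without control replicate 1 or 3 (adjusted p up to 0.0946).

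Many listed genes of other cell types did not pass the filter on low values, and those high in 1 group could pass through it. Of 11 tested extraembryonic and definitive endoderm genes 4 rose (Krt18, Krt19, Cubn and Lrp2), 0 fell and 7 varied. That is 36.4% called and 63.6% varying, beside 7.32% and 11.3% over all genes tested. The summed level of 8 defining endoderm markers was 2.27 to 7.839 normalized counts in hairpin cells of day 2, 12.22 to 20.51 in those of day 4 and 4.503 to 7.77 in those of day 6, against 2.206 to 8.628 in control cells. Of 8 tested fibroblast and feeder cell genes 3 rose (Tagln, Acta2 and Cyr61) and 0 fell (37.5% called). The calls of Cyr61 and of Cubn were lost with at least 1 library left out (limma adjusted p up to 0.217 and 0.104). Cyr61 and Cubn each reached 10 normalized counts in fewer than 6 libraries. Of 5 tested primed epiblast and neural genes 2 rose (40% called), the inhibitor Id2 (1.65 ± 0.34, adjusted p 0.00573 by limma) and the transcription factor Sox11 (1.48 ± 0.43, adjusted p 0.0422). The call of Sox11 was lost in 8 of the 12 fits that left out 1 library, with a change as low as 0.95 and an adjusted p up to 0.248. The summed level of 7 neural markers was 15.67 to 22.39 in hairpin cells of day 2, 20.75 to 27 in those of day 4 and 41.72 to 54.01 in those of day 6, against 21.14 to 35.89 in control cells. Mesendoderm and mesoderm genes had 0 calls of 4 tested.

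**Figure D5:**
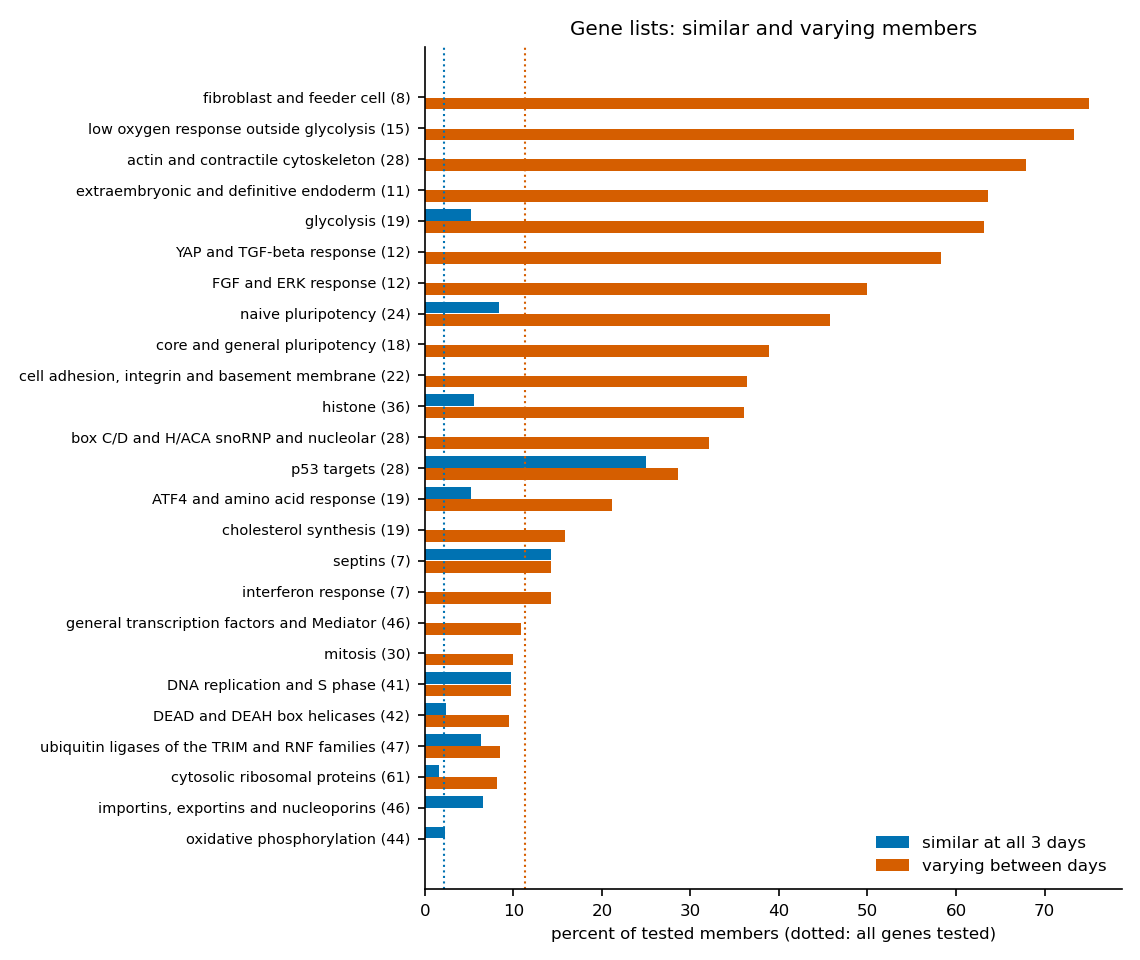
Percent of tested members (x axis) that were similar at all 3 days (blue) and that varied between days (orange), for each list with at least 7 tested members, whose number stands in brackets. Dotted lines give the shares over all genes tested. Bars of p53 targets and septins reach furthest among the blue ones, and fibroblast, low oxygen and actin lists among the orange ones.

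Further lists had the following pooled calls, to be read beside the 7.32% of all genes tested that were called. Adhesion, integrin and basement membrane genes had 2 rises (Itgav and Itgb1) and 3 falls (Nid1, Pecam1 and Ly75) of 22. FGF and ERK response genes had 1 fall (Etv4) of 12, with 6 varying (50%, beside 11.3% over all genes tested). Amino acid response genes under ATF4 had 1 rise (Sesn2) and 1 fall (Slc7a3) of 19, with a median of -0.30. DEAD and DEAH box helicases had 3 falls (Ddx24, Ddx39 and Dhx29) of 42, and general transcription factors and Mediator had 2 (Gtf2h1 and Gtf3c4) of 46. Mitosis genes had 1 rise (Hmmr) and 2 falls (Ccna2 and Prc1) of 30. Cholesterol synthesis (19 tested) and interferon response genes (7 tested) had 0 calls.

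The thresholds cut through gradual differences. Peg10, an imprinted gene high at day 6, was just inside the pooled threshold (limma adjusted p 0.0496) and the transcript 1810026B05Rik just outside it (0.0506). For the F test among days, Hist2h3b was just inside, at 0.05 after rounding, and Zmym1 just outside at 0.0502. For the rule of similar size, Manea, with changes of 0.56 at day 2, 0.98 at day 4 and 0.49 at day 6, was just inside, and Nub1, with -0.39 at day 2, -0.76 at day 4 and -0.78 at day 6, just outside.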

How the data were processed

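RNA-seq of 12 libraries was analysed as log2 normalized counts, deposited by the authors as 1 table of 37477 rows. The submitters' processing notes name BWA, DESeq and mm9. Counting and strand rules are not given in the sources used here. Values were raised back to normalized counts (listed 0 kept at 0, standing for 1 or less), since raw counts were not used; a mean that includes them is thus a lower bound. The 8739 rows that reached 10 normalized counts in 3 or more libraries were fitted as log2(value + 1), which understates changes of low genes, with limma 3.58.1 in R 4.3.3: 1 coefficient per group, intensity trend, 8 residual and 9.48 prior degrees of freedom, adjusted p under 0.05. The fit was tested on simulated data. Members and the 27 lists were chosen with earlier results of these data known.

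Genes named, from those averaging at least 50 normalized counts, were the 10 largest similar rises and falls without overlap, the 6 varying rises and falls with the smallest F test p, 6 with opposite days, leading members of lists with many calls, reported TUNA partners, pluripotency factors and threshold neighbours; other called members of 7 lists were added after their values were seen, and list members may average under 50. A gene picked by the rule and the results of 2 lists are not reported here but stay in every fit. Of the row symbols 81.1% matched a RefSeq symbol or synonym; annotation is GRCm38, whereas the table is mm9. Alternatives were other scalings, filters, pseudocounts, variance models and thresholds, a replicate block, other definitions of the pool and of similar size, and each day or library left out.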

Additional observations from a re-analysis of the deposited data

Results flagged for a closer look

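The 64 named genes below had levels that differed among the TUNA hairpin days (limma's moderated F test, Benjamini-Hochberg adjusted p under 0.05, n = 3 libraries a day). That test compared the day means of the 9 hairpin libraries, with the spread estimated from all 12 libraries. Of all genes tested 11.3% passed. The named genes are sorted by the day with the largest change from control, and the value beside each gene is the adjusted p of the F test. Causes were not tested, and no control library of day 4 or 6 was analysed here. At day 2, the largest change lay above the control for Ncl (3.68e-09), Nop56 (5e-09), Gm5514 (2.6e-06), Kbtbd11 (5.55e-06) and Cth (5.15e-05). At day 2, the largest change lay below the control for Hist2h3b (0.05). At day 4, the largest change lay above the control for G2e3 (8.62e-07), Tpi1 (1.92e-05), Ldhb (2.22e-06), Id2 (0.000778), Cubn (0.00621), Skil (0.000194), Itgav (0.00397), Slc2a1 (0.00262) and Plod2 (5.15e-05). The same held for Bnip3 (8.84e-06), Pmaip1 (0.0017), Ccng1 (0.0452), Ccng2 (6.01e-07), Trp53inp1 (0.0459), Ddit4 (5.17e-05), Eda2r (0.05), Ldha (0.000488) and Slc16a3 (0.000177). It also held for Egln3 (0.000675) and Hist1h1b (0.00912). At day 4, the largest change lay below the control for H2-M5 (1.72e-05), Zfp532 (1.75e-05), C030039L03Rik (1.79e-05), Rinl (2.76e-05), Flna (9.61e-06), Tdh (0.0028), Zfp57 (0.0025), L1td1 (0.000864) and Dnmt3a (0.0103). The same held for Sept11 (0.0127), Trim35 (0.011), Ptbp1 (0.0403), Nr0b1 (0.00804), Nr5a2 (0.0258), Cdc6 (0.0341) and Tpm3 (0.00629). At day 6, the largest change lay above the control for Tpm1 (1.75e-05), Krt18 (2.15e-05), Krt19 (0.0429), Tagln (1.3e-05), Acta2 (0.00011), Tpm4 (0.00282), Perp (0.00282), Cnn2 (2.32e-05) and Myl9 (0.0186). The same held for Cald1 (0.0433), Lpp (0.00119) and Peg10 (2.15e-05). At day 6, the largest change lay below the control for Mmrn2 (8.62e-07), Pfkp (3.73e-05), Ak4 (0.000583), Nid1 (0.000583), Pecam1 (0.00155), Nanog (0.0228), Sox2 (0.00272), Fgf4 (0.000175) and Tet2 (0.0141). The same held for Kdm3a (0.0372). Among hairpin days, 10 of all genes tested were called higher than control at 1 day and lower at another, and 6 of them are in the list (Ldhb, Gm5514, Kbtbd11, Flna, Cth and Ncl). Eda2r and Hist2h3b lay at the threshold. Their F tests, and that of Trp53inp1, each lost the call in 10 of the 12 fits that left out 1 library. The F test call was lost in 8 of these fits for Cald1, Kdm3a and Ptbp1, in 7 for Ccng1, and in 6 for Cdc6 and Krt19. It was lost in 4 for Nr5a2, in 2 for Dnmt3a, Myl9, Nanog and Tet2, and in 1 for Trim35.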

How the results depend on the processing

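Of 136 counts recomputed under alternatives, 101 stayed within 1.5 times their main value (318 rises, 322 falls, 986 varying genes, 112 similar rises and 81 similar falls). Weighting libraries by their estimated quality gave 549 rises, 584 falls and 3150 varying genes. An adjusted p under 0.01 gave 130, 120 and 347, with 43 similar rises and 39 similar falls. Taking the 9 hairpin libraries as 1 group gave 71 rises and 53 falls, with 44 and 40 similar. Without day 2, 339 genes varied and 312 rises and 298 falls were similar, a class then judged on fewer days. Without day 4 there were 142 rises, 131 falls and 401 varying genes, and without day 6 there were 156 similar falls. Leaving out 1 library at a time gave 163 to 355 rises, 128 to 394 falls, 581 to 1042 varying genes, 56 to 125 similar rises and 42 to 88 similar falls, the lowest counts of rises and falls being without control replicate 1. Among named genes with a pooled call, the change reversed sign without day 2 for Ncl (-0.49) and Nop56 (-0.31), without day 4 for Tpi1 (-0.015) and without day 6 for Mmrn2 (0.10) and Peg10 (-0.025). The causes were not tested. Scalings, pseudocounts, filters and the other measure of similar size left these 5 counts within 1.5 times. Replicate numbers showed no clear pairing over all groups: deviations of same-numbered libraries correlated at a median of 0.02, over 0.1 in 3 of 18 pairs. Of the 12 libraries, 6 correlated best with their own number. Pairs with a control library ran from -0.277 to 0.0236 and pairs of hairpin days from -0.0335 to 0.328. Pairing among the hairpin days was thus not settled. A fit with the replicate block called 530 genes, 521 of them among the 640 of the fit without it, and 160 were similar. Small changes were often missed in simulated data: of 34 genes given a steady 1.5-fold rise 35.3% were found, and none of the 34 was among the genes of lowest mean counts.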
